A study of Mus musculus with 6 samples.

Results

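The 9 genes described here encode transcription factors that establish or maintain the macrophage lineage: Spi1, Cebpa, Runx1, Klf4, Zeb2, Mitf, Maf, Bhlhe40 and Bcl6. They were taken by symbol, as 9 of the 55401 genes of a deposited count table. The rule names the genes and sets no threshold on a measured value, but the list was drawn up with earlier results of these data known. The table came from bulk RNA sequencing of RAW264.7, a mouse macrophage-like cell line. Its groups were 3 libraries from cells given molybdenum disulfide (MoS2, a layered metal sulfide) at 6.25 µg/ml and 3 from cells given phosphate-buffered saline (PBS). The genotype was WT in both groups, and both grew in the same serum-containing medium. The sources used here give no duration of treatment. It is also not stated whether replicates came from separate cultures, so a p-value here reflects how these libraries vary, which may be technical.

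Macrophage identity rests on a few factors that act together at enhancers. PU.1, the product of Spi1, and C/EBPα, the product of Cebpa, bind side by side at myeloid genes, and RUNX1 acts with its partner CBFβ before and beside them. KLF4 is tied to the monocyte stage and to alternative activation, MITF to lysosomes and osteoclasts, and ZEB2, MAF and BHLHE40 to the identity and self-renewal of tissue-resident macrophages. BCL6 is a repressor that holds down inflammatory genes in macrophages.

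With MoS2, 3 of the 8 measurable factors rose (Bcl6, Runx1 and Bhlhe40) and 5 fell (Cebpa, Klf4, Zeb2, Mitf and Spi1). Maf had no count in any library. Cebpa moved furthest, to a level 16.8-fold lower with MoS2 than with PBS. The rises were 1.78-fold at most, and none of the 3 genes was called higher when libraries were scaled by their totals alone. Among the 5 that fell, only Spi1 lost its call in any alternative. It did so after correction for the length and GC content of genes, described below (log2 fold change -0.10, edgeR adjusted p = 0.15). Calls rest on edgeR's quasi-likelihood test at a Benjamini-Hochberg adjusted p under 0.05, across the 12972 genes that passed its filter on low counts. The counts of 3 and 5 stand beside a background in which 80.7% of all tested genes were called, 38.3% of them higher with MoS2 and 42.4% lower, where both shares are of the genes tested. The median log2 fold change was -0.77 over the 8 factors and -0.08 over all genes tested.

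The 2 groups differed widely as whole libraries, which bears on every direction given here. Total counts were 15767618 to 18412762 with MoS2 and 17008020 to 17695883 with PBS. The 10 most abundant genes took 18.9% to 19.6% of the counts in the MoS2 libraries and 5.25% to 5.64% in the PBS libraries. The trimmed mean of M-values (TMM) scaling used here gave factors of 0.743 to 0.783 to MoS2 libraries and 1.31 to PBS libraries. Scaling by library totals alone moved the median log2 fold change of all genes by -0.77. It left 18.0% of tested genes called higher and 67.7% called lower with MoS2. Removing the trend of each library on the length and GC content of genes, an alternative added after the data were seen, moved that median by 0.21 and gave 44.0% higher and 36.4% lower. All 37 mitochondrially encoded genes stood at 0 in every library, so they gave no measure of RNA quality. In bulk RNA, fewer cells that express a gene and less of its RNA per cell cannot be told apart.

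The label of macrophage-like cells was checked with marker lists. All 12 macrophage markers had counts in both groups. Their summed level was 6316 to 6499 CPM (counts scaled to a common library size) with MoS2 and 10012 to 10092 CPM with PBS. Under TMM, 3 of the 11 tested were called higher and 5 lower, beside 38.3% and 42.4% of all tested genes. Their median log2 change was -0.09, against -0.08 over all genes tested. Library totals gave 2 higher and 8 lower, beside 18.0% and 67.7% of all tested genes. The marker Mertk, a receptor for dying cells, had 2 counts in each group. Neutrophil markers summed to 1.68 to 2.12 CPM with MoS2 and 9.48 to 11.1 CPM with PBS, and the defining genes Mpo and Ltf were at 0. Dendritic cell markers summed to 103 to 110 CPM with MoS2 and 157 to 174 CPM with PBS, most of it from Tcf4, a factor that other cells also express. Osteoclast markers summed to 68.2 to 70.3 CPM with MoS2 and 104 to 113 CPM with PBS. Of the 5 tested, 2 were called higher and 2 lower under TMM, with a median log2 change of 0.20. Erythroid and megakaryocyte markers summed to 12.5 to 13.9 CPM with MoS2 and 32.5 to 35.1 CPM with PBS, most of it from Tal1, while Gata1 and Hbb-bs were at 0. The lymphoid list summed to at most 4.53 CPM with MoS2 and 3.74 CPM with PBS, and the mast cell list to at most 0.512 CPM with MoS2 and 0.869 CPM with PBS. The fibroblast list summed to at most 0.731 CPM with MoS2 and 0.225 CPM with PBS. The part that any of these other cell types plays in the results was not tested.

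The promoters of the factors that moved furthest down, Cebpa and Klf4, and furthest up, Bcl6, are shown first, because these genes carry the contrast and because several of the 9 factors bind their own promoters or those of each other. RefSeq promoter windows on GRCm38.p6 were found for 6 of the 9 genes (Cebpa, Klf4, Runx1, Mitf, Zeb2 and Bcl6), each 300 bases long, with 250 before and 50 from the start site on. They were searched on both strands for short forms of motifs that the 9 factors are known to bind. These were GAGGAA for PU.1, TTGCNNA for C/EBP, TGCTGA for MAF, CACCC for KLF, TGTGGT for RUNX, CACGTG for the E-box of MITF and BHLHE40, CACCTG for ZEB and TTCCTAG for BCL6. Capitals mark every match. A match describes the letters and not a bound site, and the absence of a match concerns this window alone.
Cebpa promoter, chr7:35119043-35119342, plus strand: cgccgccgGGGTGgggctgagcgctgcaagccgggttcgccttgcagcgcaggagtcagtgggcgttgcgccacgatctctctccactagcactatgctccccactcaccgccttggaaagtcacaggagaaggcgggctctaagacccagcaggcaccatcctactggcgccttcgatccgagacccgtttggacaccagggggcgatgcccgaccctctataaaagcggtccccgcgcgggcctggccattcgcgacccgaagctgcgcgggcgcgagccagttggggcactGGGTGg
Klf4 promoter, chr4:55532426-55532725, minus strand: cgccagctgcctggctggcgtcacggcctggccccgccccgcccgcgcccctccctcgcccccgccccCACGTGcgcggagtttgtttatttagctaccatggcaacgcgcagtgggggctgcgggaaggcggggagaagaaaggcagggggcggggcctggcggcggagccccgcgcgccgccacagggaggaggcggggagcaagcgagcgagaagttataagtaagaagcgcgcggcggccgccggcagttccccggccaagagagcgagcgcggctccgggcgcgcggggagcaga
Bcl6 promoter at the upstream start of 2, chr16:23988803-23989102, minus strand: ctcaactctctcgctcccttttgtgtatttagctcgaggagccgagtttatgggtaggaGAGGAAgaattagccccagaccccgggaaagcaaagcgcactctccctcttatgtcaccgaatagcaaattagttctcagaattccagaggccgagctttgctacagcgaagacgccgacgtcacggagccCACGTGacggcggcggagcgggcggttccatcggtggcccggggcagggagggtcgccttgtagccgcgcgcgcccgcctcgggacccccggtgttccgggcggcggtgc
Mitf promoter at the upstream start of 3, chr6:97806808-97807107, plus strand: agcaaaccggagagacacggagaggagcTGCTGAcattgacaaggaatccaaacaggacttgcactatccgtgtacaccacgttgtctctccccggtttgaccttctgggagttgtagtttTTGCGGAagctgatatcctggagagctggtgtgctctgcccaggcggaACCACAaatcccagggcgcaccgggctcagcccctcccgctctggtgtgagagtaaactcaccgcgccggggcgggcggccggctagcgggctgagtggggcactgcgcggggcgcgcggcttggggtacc

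The Cebpa window held 2 matches, both to CACCC read on the opposite strand and so printed as GGGTG, at -242 and 44 from the start site counted as 0. CACCC occurs in 57.5% of the 32851 promoter windows of this length. The GC-rich Klf4 window held a CACGTG at -182, and the Bcl6 window held a CACGTG at -60 and a GAGGAA at -191. CACGTG was found in 7.15% of all windows and GAGGAA in 28.3%. The Mitf window, shown as that of the lysosome regulator whose level fell, held a TGCTGA (in 19.5% of all windows), a TTGCNNA match (in 37.1%) and a TGTGGT on the opposite strand (in 16.8%). No capitals of 2 motifs shared a base in these 4 windows. Windows not shown held matches too, not all of them given here. The upstream Runx1 window of 2 held 2 TGTGGT matches, both on the opposite strand. Each of the 4 Zeb2 windows held a GAGGAA, and the windows of starts 2 and 3 overlap and share theirs.

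**Figure D1:**
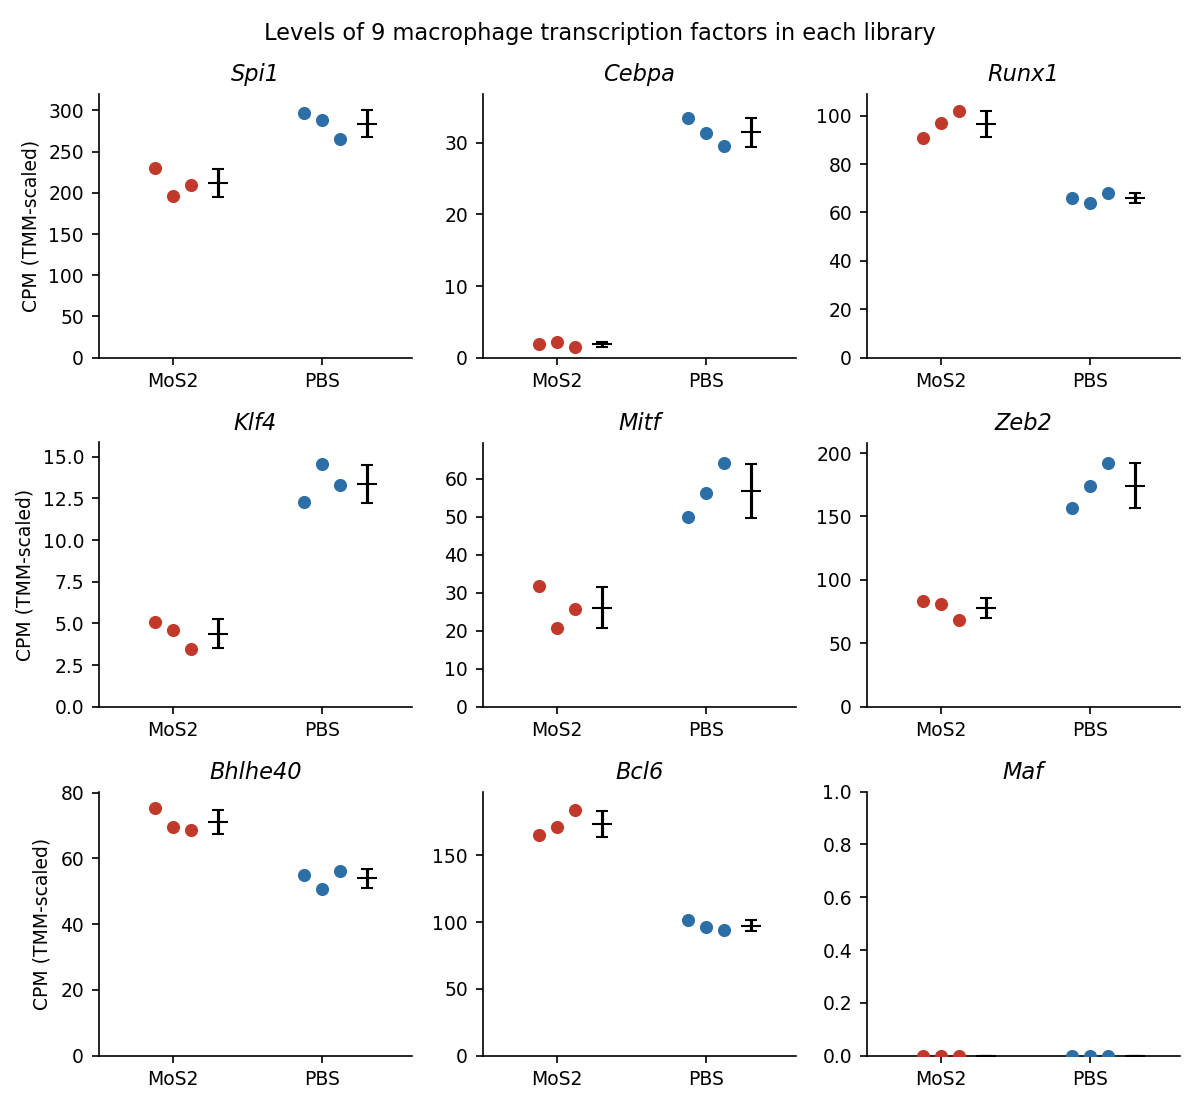
Level of each of the 9 factors in CPM with TMM scaling (linear axes that start at 0), with 1 point per library and the mean ± SD beside it, MoS2 libraries left of PBS libraries. For 8 factors the 3 MoS2 libraries lay all above or all below the 3 PBS libraries, and Maf was at 0 in all 6.

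Among the factors that build the lineage, Spi1 (ENSMUSG00000002111.8, GRCm38 chr2:91082390-91115756, plus strand) stayed the most abundant. PU.1 switches on the receptor for the growth factor M-CSF and most other genes that define the cell. Its CPM was 230, 196 and 209 in the MoS2 libraries, against 297, 288 and 266 in the PBS libraries. All 3 MoS2 libraries lay below all 3 PBS libraries, and the log2 fold change was -0.42 ± 0.07 (SE; edgeR adjusted p = 1.0e-04). With the length and GC trend removed the change was -0.10, and the call was lost (edgeR adjusted p = 0.15), while library totals gave -1.19.

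Cebpa (ENSMUSG00000034957.10, chr7:35119293-35121928, plus strand) encodes the factor that commits progenitors to the granulocyte and monocyte path. It had 24, 27 and 21 counts in the MoS2 libraries, against 773, 723 and 656 counts in the PBS libraries. In CPM these were 1.92, 2.19 and 1.54 with MoS2, against 33.5, 31.4 and 29.5 with PBS, and the groups lay far apart. The log2 fold change was -4.07 ± 0.15 (edgeR adjusted p = 1.8e-11), and 1.40% of all tested genes had a lower log2 fold change. With so few counts in the MoS2 libraries this SE is too small. DESeq2 gave -4.07 ± 0.22 and limma-voom -4.06 ± 0.24 for Cebpa. The edgeR change was -4.84 with library totals and -3.64 with the length and GC trend removed, so the direction did not turn under either scaling. An antisense gene, Gm45091, shares 1.94% of its exon bases and had 32 counts in all.

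Runx1 (ENSMUSG00000022952.17, chr16:92601466-92826149, minus strand) encodes the DNA-binding subunit of the core-binding factor. Its CPM was 91.0, 97.0 and 102 with MoS2, against 65.9, 63.8 and 68.1 with PBS. Every MoS2 library was above every PBS library under TMM, at 0.55 ± 0.07 on the log2 scale (edgeR adjusted p = 4.5e-06). Under library totals the direction turned, to -0.22 (edgeR adjusted p = 0.0078), and with the length and GC trend removed it was 0.90.

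Klf4 (ENSMUSG00000003032.8, chr4:55527143-55532466, minus strand) encodes a zinc-finger factor that monocyte differentiation draws on. It had 64, 57 and 47 counts with MoS2, against 283, 335 and 296 counts with PBS. Its CPM was 5.11, 4.62 and 3.44 with MoS2, against 12.3, 14.5 and 13.3 with PBS, and no library of either group reached the range of the other. The log2 fold change was -1.61 ± 0.16 (edgeR adjusted p = 5.3e-07), with -2.38 under library totals and -1.39 with the length and GC trend removed.

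Of the factors linked to tissue-resident macrophages, Zeb2 (ENSMUSG00000026872.18, chr2:44983632-45117395, minus strand) fell. Its product, an E-box repressor, preserves the identity of resident macrophages in mice. CPM was 83.1, 80.9 and 68.6 with MoS2, against 157, 174 and 192 with PBS, so the highest MoS2 library lay below the lowest PBS library by a wide margin. The log2 fold change was -1.17 ± 0.09 (edgeR adjusted p = 2.8e-08), with -1.94 under library totals and -0.83 with the length and GC trend removed. The sources used here do not say how the counting treated strand, and the antisense gene Zeb2os shares 3.23% of the exon bases of Zeb2. Zeb2os had 126 counts over the 6 libraries and Zeb2 had 14876.

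Maf (ENSMUSG00000055435.6, chr8:115682942-115707794, minus strand), whose product c-MAF drives Il10 and other genes of resident macrophages, had 0 counts in all 6 libraries. A count of 0 allows up to 3 counts, which is 0.130 to 0.243 CPM in these libraries. Maf was therefore not detectable at this depth in either group, and no fold change can be given.

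Bhlhe40 (ENSMUSG00000030103.11, chr6:108660629-108666925, plus strand) encodes a repressor that keeps Maf low in mouse peritoneal macrophages and lets them proliferate. Its CPM was 75.3, 69.6 and 68.5 with MoS2, against 54.9, 50.7 and 56.2 with PBS. The MoS2 libraries were all higher under TMM, at 0.40 ± 0.07 on the log2 scale (edgeR adjusted p = 1.8e-04), but under library totals the direction turned, to -0.37 (edgeR adjusted p = 4.5e-04).

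Mitf (ENSMUSG00000035158.15, chr6:97807052-98021349, plus strand) encodes a regulator of lysosomal and osteoclast genes. Its CPM was 31.6, 20.8 and 25.8 with MoS2, against 50.04, 56.2 and 64.03 with PBS. The groups did not overlap, and the means were 26.1 ± 5.40 CPM with MoS2 and 56.8 ± 7.01 CPM with PBS (SD, n = 3 each). The log2 fold change was -1.12 ± 0.13 (edgeR adjusted p = 2.2e-06), with -1.89 under library totals and -0.93 with the length and GC trend removed.

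Bcl6 (ENSMUSG00000022508.5, chr16:23965052-23988852, minus strand) rose most among the 9 under TMM. Its CPM was 165, 171 and 184 with MoS2, against 102, 96.3 and 94.2 with PBS. All MoS2 libraries were above all PBS libraries, at 0.83 ± 0.07 on the log2 scale (edgeR adjusted p = 4.0e-08). Its counts as deposited were close, at 6693 in sum over the MoS2 libraries and 6658 over the PBS libraries. Under library totals the groups overlapped and the change of 0.06 was not called (edgeR adjusted p = 0.39).

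Taken by group ranges, 8 of 8 tested factors did not overlap under TMM, where 81.9% of all tested genes did not overlap either. Under library totals 7 of 8 did not overlap, beside 86.6% of all tested genes. Library totals gave 0 factors higher and 7 lower, where 85.7% of all tested genes were called. Removal of the length and GC trend gave 3 higher and 4 lower, with Spi1 not called, where 80.4% of all tested genes were called. The median log2 fold change of the 8 was -1.54 under library totals and -0.47 with the trend removed. In the plot of changes under 3 scalings the order of the 8 ran from Cebpa as the lowest to Bcl6 as the highest under TMM. Library totals shift all genes by nearly the same amount, so the order could hardly differ there and was the same. With the trend removed Mitf and Zeb2 changed places.

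**Figure D2:**
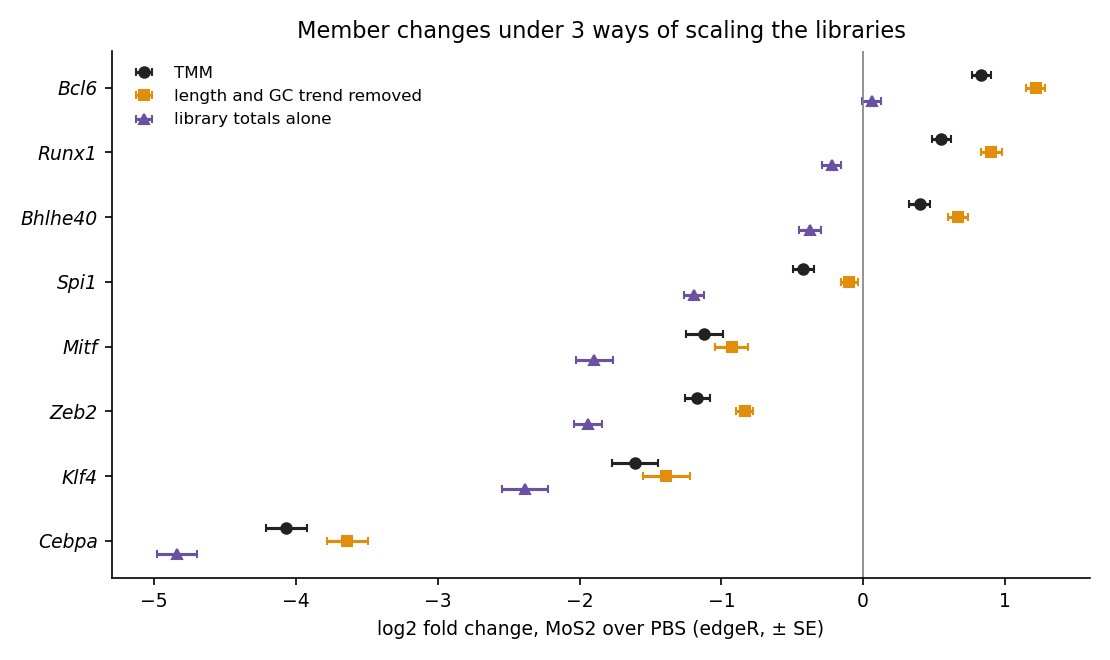
Log2 fold change, MoS2 over PBS, of the 8 tested factors with its SE from edgeR, under TMM scaling (circles), with each library's length and GC trend removed (squares) and under library totals (triangles). Cebpa, Klf4, Zeb2, Mitf and Spi1 lie left of 0 under all 3, whereas Runx1 and Bhlhe40 change side and Bcl6 moves to 0.06 under library totals. Spi1, at -0.10 with the trend removed, is not called there.

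Levels can be ordered roughly between genes when they are given per length, as CPM per kilobase of exon (RPKM). The length is that of all exons annotated for a gene, which need not all be expressed here, so the order is approximate. With MoS2 the order was Spi1 at 78.6, Bcl6 at 25.9, Bhlhe40 at 15.1, Runx1 at 8.03, Mitf at 4.21, Zeb2 at 3.84, Klf4 at 1.44 and Cebpa at 0.713 RPKM. In that group only Mitf and Zeb2, next to each other, had overlapping libraries. With PBS it was Spi1 at 105, Bcl6 at 14.5, Cebpa at 11.9, Bhlhe40 at 11.5, Mitf at 9.16, Zeb2 at 8.63, Runx1 at 5.48 and Klf4 at 4.39 RPKM. There Cebpa and Bhlhe40, and Mitf and Zeb2, overlapped with each other. Spi1 and Bcl6 thus kept the top places, while Cebpa came last of the detected factors in MoS2 cells and next after Bcl6 in PBS cells.

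The balance between members and their closest relatives or partners was read within each library, as the log2 ratio of counts per exon length with 0.5 added to each count, which needs no scaling between libraries. Of 16 listed pairs, 11 could be computed, and 5 with a gene at 0 in some library were left out, a rule set after the counts were seen. The groups did not overlap for 9 of the 11 pairs, a count to be read beside the 81.9% of single tested genes whose groups did not overlap under TMM. An exact two-sided permutation test of 3 against 3 libraries gave p = 0.1 for each of the 9, the smallest it can give, and 0.12 after Benjamini-Hochberg adjustment over the 11, so none passed 0.05.

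The ratio of Spi1 to Cebpa was 109 in MoS2 libraries and 8.82 in PBS libraries, a log2 difference of 3.63. Cebpa to Cebpb, the C/EBP factor that inflammatory signals induce, differed by -4.96 on the log2 scale. Klf4 to Klf6 differed by -3.46 and Klf4 to Klf2 by -2.43. In these 3 pairs the ratio was lower in every MoS2 library than in any PBS library, and Klf4 lay below Klf2 in all MoS2 libraries and above it in all PBS libraries. Runx1 to Cbfb, the gene of its obligate partner, differed by 1.998, with a ratio of 0.647 in MoS2 libraries and 0.162 in PBS libraries. Mitf differed from Tfec by -2.18 and from Tfe3 by -1.05, while its ratio to Tfeb overlapped between the groups (0.26; exact permutation p = 0.3). Bhlhe40 and Bhlhe41, which act redundantly in mouse macrophages, kept overlapping ratios (-0.11; exact permutation p = 0.2). Spi1 to Csf1r, its target gene for the M-CSF receptor, differed by 1.47, and Klf4 to Spi1 by -1.19.

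**Figure D3:**
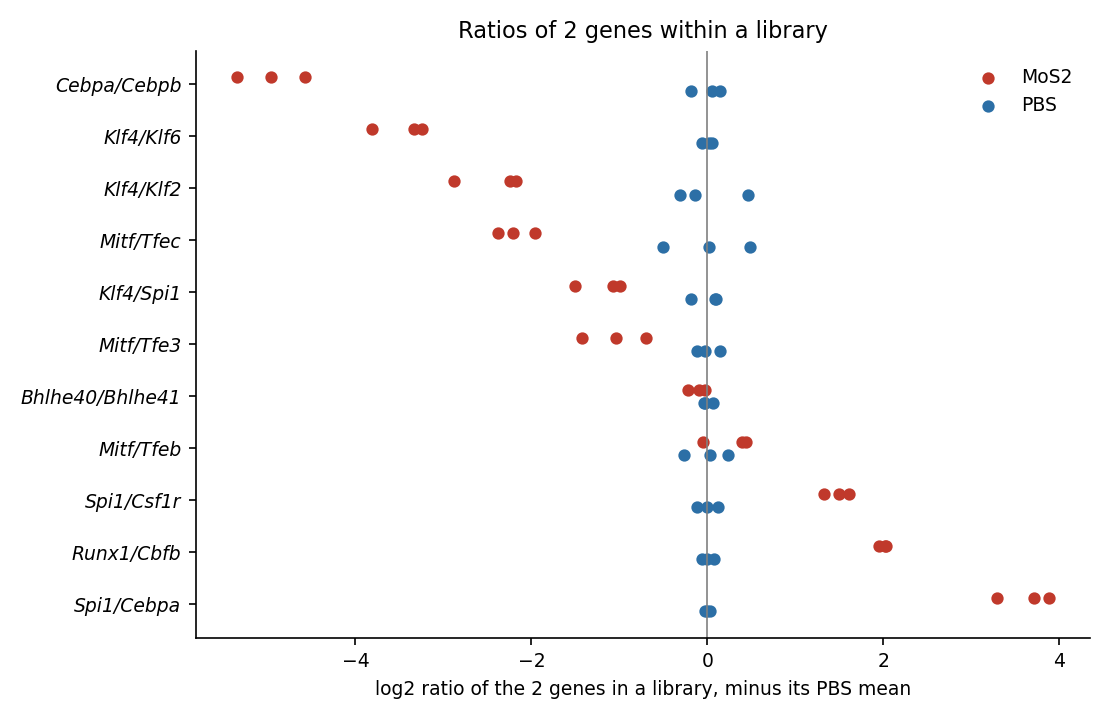
Log2 ratio of 2 genes within each library, minus the mean of the PBS libraries for that pair, with MoS2 points above PBS points on each line. The MoS2 points of 9 pairs lie outside the PBS points, where 81.9% of single tested genes do so under TMM, from -4.96 on average for Cebpa/Cebpb to 3.63 for Spi1/Cebpa, and those of Mitf/Tfeb and Bhlhe40/Bhlhe41 overlap them.

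The relatives of each factor were read from lists of families and partners. The background for counts under TMM is 38.3% of all tested genes higher and 42.4% lower. For counts under library totals it is 18.0% higher and 67.7% lower. With the length and GC trend removed it is 44.0% higher and 36.4% lower. Among the ETS relatives of Spi1, 0 of 10 tested genes rose and 7 fell under TMM, and with the length and GC trend removed 3 were higher and 6 lower. DESeq2, limma-voom and an unadjusted p under 0.05 in edgeR also gave 0 higher. Fli1, a partner of RUNX1 in blood progenitors, averaged 20.8 ± 0.759 CPM with MoS2 and 68.1 ± 2.63 CPM with PBS (SD, n = 3 each), a log2 change of -1.71. Elf2 (-1.87), Elk3 (-1.49) and Ets2 (-0.99), an effector of growth-factor signals, also fell. Spib, the closest relative of Spi1, had 0 counts with MoS2 and 42 with PBS over the group, at least 7.89-fold lower when 3 counts over the group are taken for the 0.

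The C/EBP family moved in both directions. Ddit3 (CHOP), a stress-induced member that pairs with other C/EBP proteins, had 623, 595 and 685 CPM with MoS2, against 59.2, 50.4 and 49.1 CPM with PBS, a log2 change of 3.58 ± 0.09. Cebpb had 363, 316 and 383 CPM with MoS2, against 228, 181 and 160 CPM with PBS, a log2 change of 0.90 that was 0.12 and not called under library totals. The groups of both genes lay apart under TMM, opposite in direction to Cebpa. Cebpe, a factor of late granulocytes, fell by 1.90 on the log2 scale, and Cebpg rose by 0.49 but turned to -0.29 under library totals. In all, 3 of 6 rose and 3 fell under TMM, and 1 rose and 4 fell under library totals.

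The MAF family, read in place of the undetected Maf, had 2 of 6 tested genes higher and 3 lower, and library totals gave 1 higher and 4 lower. Mafa had 0 counts with MoS2 and 69 with PBS, at least 12.97-fold lower with 3 counts over the group taken for the 0. The small MAF gene Mafk, whose product lacks a transactivation domain and pairs with NRF2 and BACH1, rose by 2.42 on the log2 scale, to 275 ± 10.2 CPM with MoS2 against 51.3 ± 3.76 CPM with PBS (SD, n = 3 each). Maff, another small MAF gene, rose by 0.66 under TMM and stood at -0.12, not called, under library totals.

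**Figure D4:**
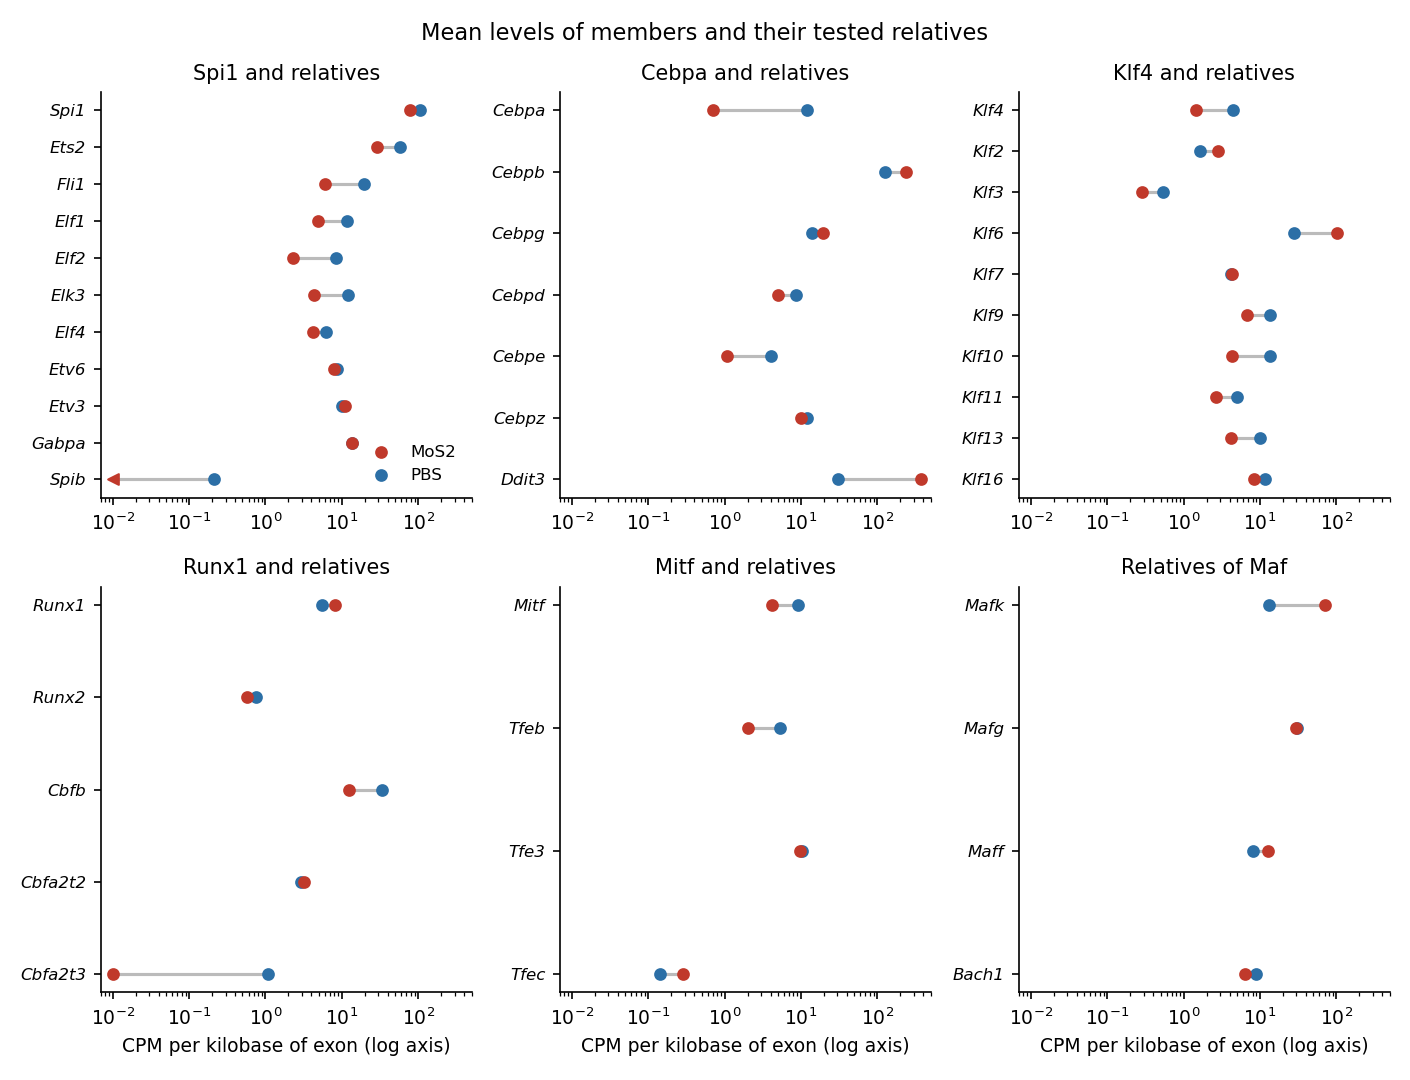
Mean level per group in CPM per kilobase of exon (log axis) of members and of selected relatives and partners that passed the low-count filter, MoS2 in red and PBS in blue joined by a line, for 6 families; a red triangle at the axis marks a mean of 0 (Spib). Cebpa lies left of its PBS value while Cebpb and Ddit3 lie right of theirs, and Cbfb lies left while Runx1 lies right.

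KLF relatives of Klf4 were 2 of 9 higher and 6 lower under TMM, and 1 higher and 7 lower under library totals. Klf6, which promotes inflammatory activation in macrophages, had 452, 433 and 451 CPM with MoS2, against 119, 130 and 122 CPM with PBS, a log2 change of 1.85. Its 3 MoS2 libraries were all above its PBS libraries, and the direction held under library totals (1.08). Klf10 (-1.69), Klf13 (-1.29) and Klf9 (-0.98) fell. Klf2, a quiescence factor close to Klf4, rose by 0.78 under TMM and stood at 0.01 under library totals.

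Among RUNX family members and partners, 0 of 4 tested genes rose and 2 fell under TMM, all 4 were lower under library totals, and 1 was higher with the length and GC trend removed. DESeq2, limma-voom and an unadjusted p under 0.05 in edgeR gave 0 higher here too. Cbfb, which encodes the subunit that stabilises RUNX1 on DNA, had 42.1, 42.5 and 45.0 CPM with MoS2, against 119, 119 and 116 CPM with PBS, a log2 change of -1.45 ± 0.07 (edgeR adjusted p = 1.6e-10). Its groups lay apart in the direction opposite to that of Runx1 under TMM. Cbfa2t3, a corepressor of the ETO family, had 3 counts with MoS2 and 617 with PBS, a ratio of 0.00862 with an exact 95% counting interval of 0.00177 to 0.0253 that covers counting error only. Runx2, at -0.37, and Cbfa2t2, at 0.10, did not pass the test.

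Of the 3 MiT/TFE relatives of Mitf, Tfeb fell by 1.40 on the log2 scale, to 11.6 ± 0.966 CPM with MoS2 against 30.4 ± 1.67 CPM with PBS (SD, n = 3 each). TFEB is the main activator of lysosome genes beside MITF and TFE3. Tfe3, the most abundant of the 3 per length, was at -0.08 and not called. Tfec, a macrophage-restricted member, was at 0.99 with an edgeR adjusted p of 0.026. Its call was lost, leaving 0 of 3 relatives higher, without MoS2 replicate 1 or 3 or without PBS replicate 1 or 3. The Tfec call was also lost under library totals, by DESeq2, with no low-count filter and at an adjusted p under 0.01. Without PBS replicate 1, 2 relatives were called lower. Bhlhe41, the partner of Bhlhe40 in alveolar macrophages, rose by 0.52 under TMM and turned to -0.26 under library totals, as Bhlhe40 did. Zeb1, the relative of Zeb2, had 3 counts with MoS2 and 2 with PBS.

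BCL6 works through corepressors, and of its 6 tested relatives and corepressors 1 rose and 4 fell under TMM, while all 6 were lower under library totals. The corepressor gene Bcor fell by 1.59 on the log2 scale, its relative Zbtb7a by 1.35 and Bcl6b by 0.995. Hdac3, the deacetylase of the NCOR complex, was at 0.45 under TMM and at -0.33 under library totals. Prdm1, whose product and BCL6 repress each other's genes in B cells, had 1 count with MoS2 and 0 with PBS.

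Genes that these factors are known to control were read in the same way. The 36 listed myeloid genes under PU.1 were all tested, and 16 rose and 14 fell under TMM, with a median log2 change of 0.03. Library totals gave 6 higher and 27 lower, and removal of the length and GC trend 14 higher and 15 lower. Csf1r, the M-CSF receptor, had 510, 529 and 499 CPM with MoS2, against 1835, 1944 and 1949 CPM with PBS, a log2 change of -1.90 ± 0.06 (edgeR adjusted p = 5.4e-12). Mpeg1, a pore-forming protein of macrophages, fell by 2.52, Csf3r, the receptor for G-CSF and a gene that C/EBPα also drives, by 3.10, and Sirpa, the receptor for the CD47 signal, by 1.504 on the log2 scale. The integrin genes Itgam (1.47) and Itgb2 (1.31), the Fc receptor chain Fcer1g (1.31) and Cd68 (1.09) rose, and these 4 were picked after their values were seen. They were also higher under library totals, at 0.70, 0.54, 0.54 and 0.31 in that order.

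The genes linked to MAF factors in resident macrophages were mostly too low to test, with 3 of 14 past the low-count filter. Of the 14, 4 (C1qc, Cd163, Cd209a and Slco2b1) had 0 counts in all 6 libraries. Gas6, a bridging ligand for the uptake of dying cells, had 28.03, 28.3 and 25.2 CPM with MoS2, against 204, 188 and 184 CPM with PBS, a log2 change of -2.82. Mrc1, the mannose receptor, had 2 counts with MoS2 and 35 with PBS, a ratio of 0.101 (exact 95% counting interval 0.0118 to 0.394). Stab1 was at 0.43 (edgeR adjusted p = 0.049), and without either of MoS2 replicates 1 and 2 or PBS replicates 1 and 2 the list had 0 genes higher.

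Of 9 tested osteoclast and lysosome genes under MITF, 5 rose and 3 fell under TMM, and 2 rose and 7 fell under library totals. Ostm1, part of the lysosomal chloride exchanger, fell by 1.87 on the log2 scale. Nfatc1, the master factor of osteoclasts, fell by 1.39, and Gpnmb, a lysosomal and membrane glycoprotein, by 0.65. Ctsk, the bone-degrading cathepsin K, rose by 2.53, to 6.47, 7.05 and 4.17 CPM with MoS2 against 1.34, 0.782 and 0.899 CPM with PBS, and Atp6v0d2, a proton pump subunit, rose by 1.06. Ctsk and Atp6v0d2 stayed higher under library totals, at 1.77 and 0.29, so the listed MITF genes did not move in a single direction.

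Of 13 tested genes that BCL6 is known to repress, 10 rose and 0 fell under TMM. At an unadjusted p under 0.05 in edgeR, by DESeq2 or by limma-voom, 0 were lower. The list was chosen with earlier results of these data known, so its counts and median are no independent result about BCL6 targets. Without MoS2 replicate 2, with upper-quartile factors or with no low-count filter 1 was called lower. Under library totals 10 were higher and 3 lower, and the median log2 change was 2.76 under TMM and 1.99 under library totals. Ccl3, a chemokine gene, had 14193, 14267 and 14741 CPM with MoS2, against 293, 286 and 280 CPM with PBS, a log2 change of 5.65 ± 0.07 (edgeR adjusted p = 7.8e-16). Cxcl2, a neutrophil attractant, was at 3482 ± 104 CPM with MoS2 and 11.1 ± 1.66 CPM with PBS (SD, n = 3 each), a log2 change of 8.29. Another chemokine gene of the list, Cxcl1, had 0 counts in all 6 libraries. Ccl4 rose by 3.58 on the log2 scale and Cdkn1a, the cell-cycle inhibitor p21, by 2.76. Ccl2 had 1323 counts with MoS2 and 1 with PBS, and Ccl7 had 153 with MoS2 and 0 with PBS, at least 90.5-fold higher with 3 counts over the group taken for the 0. Both were named after their values were seen.

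Of 13 listed genes linked to repression by ZEB factors, Cdh1 and Ovol2 were at 0 in all libraries and 4 passed the low-count filter. Id2, which ZEB2 represses in mouse myeloid cells, had 109, 103 and 107 CPM with MoS2, against 22.3, 23.97 and 23.5 CPM with PBS, a log2 change of 2.19. Nfil3, whose product represses Zeb2 in mouse dendritic cell progenitors, rose by 1.92 on the log2 scale. Nr1h3 (LXRα), which depends on ZEB2 in mouse Kupffer cells and is not a repressed gene, fell by 1.85. These 3 stood at 1.42, 1.15 and -2.62 under library totals.

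**Figure D5:**
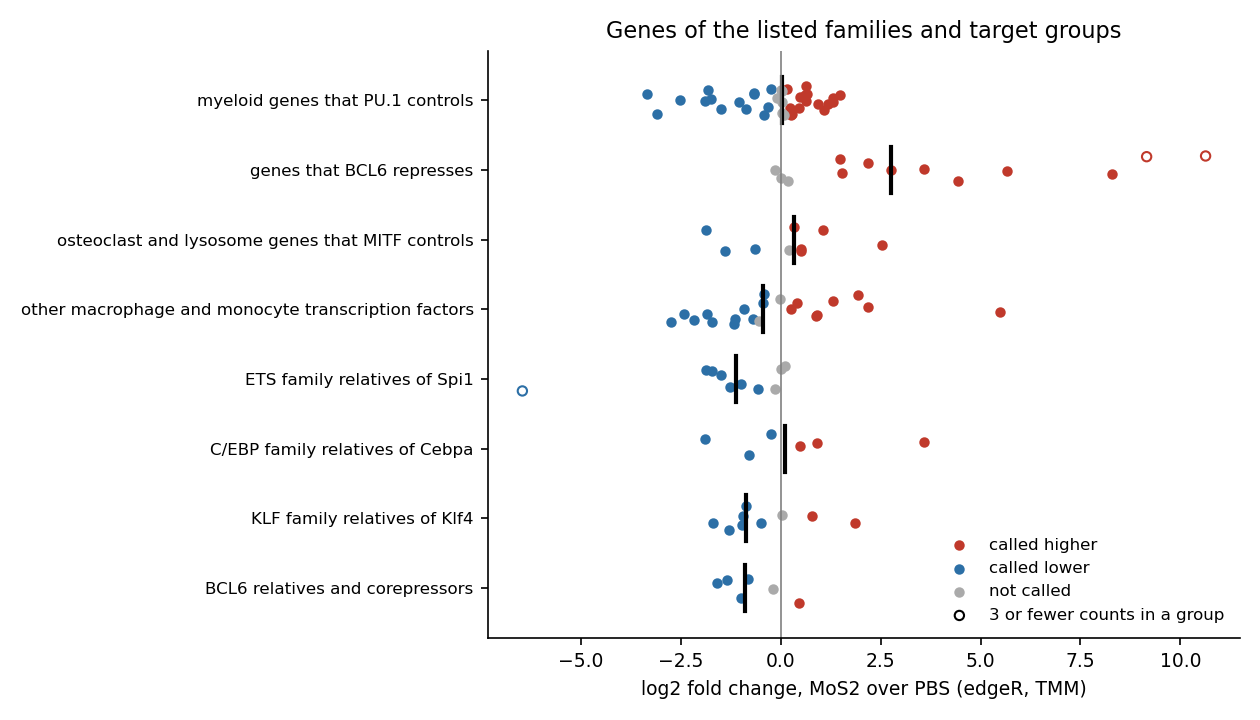
Log2 fold change, MoS2 over PBS (edgeR, TMM), of each tested gene of 8 lists, coloured by call, with the list's median as a black bar; vertical scatter within a list carries no value. Open circles have 3 or fewer counts in a group, so their position depends on the prior count. The BCL6 list lies to the right, with a median of 2.76, and the PU.1 list spreads to both sides of its median of 0.03. All lists were chosen with earlier results of these data known.

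The wider set of macrophage and monocyte transcription factors gives the setting of the 9. Of 21 tested, 8 rose and 11 fell under TMM, 4 rose and 15 fell under library totals, and the median log2 change was -0.45 under TMM. With the length and GC trend removed 10 were higher and 9 lower, and the median turned to 0.07. Hhex, a homeobox factor of blood progenitors, fell by 2.75 on the log2 scale, to 8.07 ± 0.799 CPM with MoS2 against 54.5 ± 2.24 CPM with PBS (SD, n = 3 each). Smad3, which carries TGF-β signals, fell by 2.43. Id2 and Nfil3, given above, were the other 2 with the smallest adjusted p.

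By Euclidean distance between log2 CPM profiles centred on their mean, over the 6 libraries and 6839 genes with at least 20 CPM in mean, the nearest profile to each tested factor was named. The nearest were Ift80 for Spi1 (distance 0.107), Tmem185b for Cebpa (0.286), Kdm2b for Klf4 (0.165), Luc7l for Runx1 (0.0311), Pcyox1 for Mitf (0.250), Med24 for Bhlhe40 (0.0741), Capn15 for Zeb2 (0.0803) and Cct3 for Bcl6 (0.0480). Tmem185b was at 3.46 CPM with MoS2 and 48.5 CPM with PBS. Runx1 and Bcl6 had the shortest distances and Cebpa and Mitf the longest, and with 2 groups of 3 libraries such a distance mostly records the group difference.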

How the data were processed

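Bulk RNA sequencing was analysed from the table of raw read counts per gene that the authors deposited, with no normalization. The submitters' processing notes name fastp 0.20.0, HISAT2 2.1.0 and featureCounts 1.6.1. They also name the human build GRCh38, but 54349 of 55401 identifiers match mouse GENCODE M21 (GRCm38) in version and coordinates. Columns were matched to samples by their letter and number. Exon lengths are those of the deposited table. The sources used here do not give the handling of multi-mapping reads or the strand setting, so overlapping and antisense genes cannot be told apart.

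The test was edgeR 4.0.16 (R 4.3.3, limma 3.58.1), quasi-likelihood F test, MoS2 over PBS, TMM factors, its default filter (about 10 counts in 3 libraries), prior count 0.125, Benjamini-Hochberg over 12972 genes. SE is the size of the log2 change divided by the root of F, too small where a group has few counts. CPM uses TMM-scaled library sizes. The code was tested on simulated data in which few genes changed, as many up as down, so that test does not bear on the choice of scaling. Chi-square per degree of freedom between replicates was 3.11 to 13.6, so no libraries were duplicates. Named were all members, up to 4 genes of each of 14 lists (167 genes, 127 tested) by adjusted p, listed relatives and nearest profiles, of which 2 list genes are not reported here. Members and lists were chosen with earlier results of these data known. Alternatives were RLE, upper-quartile and total scaling, no filter, a filter of 1 CPM, DESeq2 1.42.0, limma-voom, a replicate block, an adjusted p under 0.01, each library left out, and removal of the length and GC trend (mgcv 1.9.3), added after the data were seen. Ratios used Python 3.11.15 and scipy 1.17.1. RefSeq promoter windows are on GRCm38.p6.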

Additional observations from a re-analysis of the deposited data

How the results depend on the processing

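Library totals gave 2334 genes higher and 8786 lower, against 4964 and 5502 under TMM, and 0 of the 8 tested factors higher. There Runx1 turned to -0.22 and Bhlhe40 to -0.37, and Bcl6 was at 0.059 and not called (edgeR adjusted p = 0.39). With the length and GC trend removed, Spi1 was at -0.10 and not called (edgeR adjusted p = 0.15). Cebpa, Klf4, Zeb2 and Mitf were called lower under TMM and in all 16 alternatives, with log2 changes of -4.84 to -3.64, -2.38 to -1.39, -1.94 to -0.83 and -1.89 to -0.93. Leaving out each library in turn gave 10177 to 10634 genes called, and 3 factors higher and 5 lower each time. The counts of list members moved by over 1.5 times 45 times, 17 of them under library totals. With a replicate block, 10203 genes were called and all 8 factors kept their calls. Deviations of same-numbered libraries correlated at -0.14 to -0.01 over 3 pairs, and 0 of 3 MoS2 libraries correlated best with their own number, so the numbers were not taken to pair samples. Upper-quartile factors moved the median log2 change by -0.13. The cause of these differences was not tested. Depth limits Maf and the genes with 3 or fewer counts in a group.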
